A study of Mus musculus with 31 samples.

Results

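The genes described here are 9 markers of cerebellar neurons, Pcp2, Car8, Cbln1, Cbln3, Zic1, Zic2, Zic4, En2 and Neurod1, found by symbol in a table of 48795 genes. All 9 are single rows of the table, and all 9 passed the count filter that kept 19529 genes. They were followed through 31 mouse brain libraries of total RNA, 13 labelled control and 18 labelled deltamethrin. Deltamethrin belongs to the pyrethroid insecticides, which hold neuronal sodium channels open, and the series describes the exposure as developmental. The agent is the only difference the labels give between the groups. The labels state no strain, sex, age, dose, litter or batch, and they do not say that each library is a separate animal. The p-values below therefore measure the spread between these libraries, which may be partly technical. RNA came from aliquots of homogenate of part of a brain, and the labels do not give the share of cerebellum in an aliquot.

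The cerebellar cortex is built of small, densely packed granule cells and of large Purkinje cells. Granule cells are glutamatergic and send parallel fibres to the Purkinje cells, which are GABAergic and are the only output of the cortex. At the parallel fibre synapse, cerebellin made by granule cells links neurexin on the presynaptic side to the GluD2 receptor on the Purkinje cell. Several of the 9 genes are also active elsewhere. Zic genes are also transcribed in septum, olfactory bulb, thalamus and meninges, En2 in midbrain, Neurod1 in hippocampus and cortex, and Car8 and Cbln1 at lower levels outside the cerebellum.

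The markers rose and fell together from library to library, over a range far wider than the difference between the groups. Cbln3, a cerebellin of granule cells, ran from 6.31 to 165.9 CPM (counts scaled to a common library size with edgeR's TMM factors), a 26.3-fold range. Control replicate 1 and deltamethrin replicate 14 stood apart from the other 29 libraries. In control replicate 1 each of the 9 genes was the lowest or second lowest of the 31 libraries, and in deltamethrin replicate 14 each was among the lowest 3. Results that rest on these 2 libraries are given with and without them. In a bulk library, fewer cerebellar cells and less of these RNAs per cell cannot be told apart.

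Total counts ran from 17570311 to 38680621 over the 31 libraries. The share of counts from mt-Rnr1 and mt-Rnr2, the ribosomal RNAs of mitochondria, ran from 7.32 to 40.2%, and the number of genes detected from 25620 to 29402. Control replicate 2 had both the lowest total and the highest mitochondrial share. No 2 libraries were alike within sampling noise: compared by chi-square over genes, the closest pair had 6.38 per degree of freedom. The quasi-likelihood test of edgeR called 0 of 19529 genes (0%) at an adjusted p under 0.05 (Benjamini-Hochberg), and 853 reached an unadjusted p under 0.05. DESeq2 and limma voom also called 0 genes after adjustment, with 986 and 847 at an unadjusted p-value under 0.05.

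The promoters of 5 of the 9 genes were found in RefSeq (GRCm38.p6), those of Pcp2, Cbln3, Zic1, Zic4 and Neurod1. The windows of 4 of these, the 250 bases before the outermost RefSeq start site, are printed because the genes differ most in how they followed the rest. Cbln3 had the widest range, Pcp2 the weakest tie to the other markers, and Zic1 and Zic4 are neighbours with unequal ranges. Capitals mark matches to 5 short motifs searched on both strands.
Pcp2 promoter, chr8:3625548-3625797, minus strand: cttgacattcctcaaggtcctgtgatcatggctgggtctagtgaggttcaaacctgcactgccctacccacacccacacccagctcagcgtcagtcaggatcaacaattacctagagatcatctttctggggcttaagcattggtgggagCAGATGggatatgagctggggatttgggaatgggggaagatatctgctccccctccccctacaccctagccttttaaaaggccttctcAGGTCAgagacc
Cbln3 promoter, chr14:55884257-55884506, minus strand: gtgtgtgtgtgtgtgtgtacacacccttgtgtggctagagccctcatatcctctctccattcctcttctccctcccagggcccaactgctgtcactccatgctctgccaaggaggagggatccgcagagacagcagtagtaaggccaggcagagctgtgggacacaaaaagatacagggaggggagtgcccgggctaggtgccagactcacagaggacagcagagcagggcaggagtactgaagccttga
Zic1 promoter, chr9:91365769-91366018, minus strand: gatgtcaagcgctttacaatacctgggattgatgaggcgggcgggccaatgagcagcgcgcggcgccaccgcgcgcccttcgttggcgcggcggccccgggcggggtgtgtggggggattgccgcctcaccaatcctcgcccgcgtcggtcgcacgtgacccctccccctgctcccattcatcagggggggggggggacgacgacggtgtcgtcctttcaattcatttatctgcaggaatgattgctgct
Zic4 promoter, chr9:91368722-91368971, plus strand: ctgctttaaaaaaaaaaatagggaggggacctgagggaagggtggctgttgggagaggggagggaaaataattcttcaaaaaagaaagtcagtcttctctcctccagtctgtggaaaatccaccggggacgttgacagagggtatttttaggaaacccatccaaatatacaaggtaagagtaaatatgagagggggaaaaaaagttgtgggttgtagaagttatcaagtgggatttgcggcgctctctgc

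The first motif was CAGATG, an E-box form bound by the granule cell factors Atoh1 and Neurod1, which 14.5% of 27025 promoter windows of the same length held on either strand. A second E-box form, CAGCTG, was in 12.7% of all windows. The homeodomain core TAATTA was in 4.91% of them, and the Zic-type site CAGCAGG in 8.33%. The nuclear receptor site AGGTCA was in 13.8% of all windows. The Pcp2 window held the first and the last of these motifs once each, shown in capitals above. None of the 5 motifs was found in the windows of Cbln3, Zic1, Zic4 or Neurod1, which says only that these letters are not in the 250 bases searched. The windows of Zic1 and Neurod1 were GC-rich (66.0% and 67.6% G or C), and that of Zic4 was 44.4%, against a median of 52.0% over all windows.

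Coordinates of the genes are those of GENCODE M21 on GRCm38. Cbln3 (ENSMUSG00000040380) lies on chromosome 14 from 55878913 to 55884392, minus strand, and Cbln1 (ENSMUSG00000031654) on chromosome 8 from 87468405 to 87472609, minus strand. Pcp2 (ENSMUSG00000004630) lies on chromosome 8 from 3623371 to 3625545, minus strand, and Car8 (ENSMUSG00000041261) on chromosome 4 from 8143362 to 8239041, minus strand. Zic1 (ENSMUSG00000032368, chromosome 9, 91358058 to 91365810, minus strand) and Zic4 (ENSMUSG00000036972, chromosome 9, 91362413 to 91389348, plus strand) are transcribed in opposite directions. Their annotated starts in GENCODE are 3397 bases apart and 60 exon bases are shared. The RefSeq starts used for the promoter windows differ from the GENCODE starts. The Zic4 window lies inside the GENCODE gene, and the windows of Cbln3, Zic1 and Neurod1 overlap their GENCODE genes in part. Zic2 (ENSMUSG00000061524) is on chromosome 14 from 122475435 to 122479852, plus strand. En2 (ENSMUSG00000039095) is on chromosome 5 from 28165694 to 28172166, plus strand, and Neurod1 (ENSMUSG00000034701) on chromosome 2 from 79452521 to 79456751, minus strand. The use of strand in counting is not given in the sources used here, which matters most for Pcp2: 51.5% of its exon bases are also exon bases of Pet100 on the opposite strand. Its count is therefore uncertain where the 2 genes overlap. Pet100 itself, which encodes a mitochondrial assembly factor, did not follow Pcp2 (Pearson r = 0.151, permutation p = 0.410; Spearman rho = 0.203, permutation p = 0.269; n = 31). Its r was -0.062 without the 2 libraries farthest from its median, 0.383 within control and -0.025 within deltamethrin. The r of Pet100 with Cbln3 was -0.535, and its median was 16.1 CPM. Whether reads from the overlap changed the correlations of Pcp2 was not tested. Neurod1 shares 7.36% of its exon bases with Cerkl on the same strand.

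Per length of annotated exons, Car8 had the highest level, 31.9 ± 10.7 CPM per kb (SD, n = 31). It was followed by Cbln1 (19.8 ± 7.39 CPM per kb), Cbln3 (16.6 ± 8.90), Zic1 (12.4 ± 4.19), Zic2 (10.8 ± 3.46), Pcp2 (10.6 ± 3.23), Neurod1 (8.85 ± 2.91), En2 (3.76 ± 1.29) and Zic4 (0.619 ± 0.137). From Car8 down to Neurod1, each gene's range of 1 SD overlapped that of the next. The ranges of Neurod1 and En2 did not overlap, nor did those of En2 and Zic4. Each library held at least 56 counts of each marker, the smallest being Zic4 in control replicate 1, and Cbln3 had from 158 to 6315 counts.

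The first comparison asked whether the markers differed between control and deltamethrin brain. All 9 had a positive log2 fold change, as did 50.5% of all genes tested, and none passed adjustment over all genes. The 9 were correlated among libraries (median r of pairs 0.901, below), so their shared sign is not 9 separate observations. The median log2 fold change of the 9 was 0.26, against 0.0014 over all genes. Over the 31 libraries only Zic4 had an unadjusted p-value under 0.05, against 2% of all genes on the higher side and 2.37% on the lower side. Without control replicate 1 and deltamethrin replicate 14, a fit chosen after seeing the data, Car8, Neurod1 and Zic4 did (edgeR unadjusted p = 0.0467, 0.0401 and 0.0342). Their log2 fold changes were 0.28, 0.29 and 0.20, each with an adjusted p of 0.658. In that fit 1304 of 19598 genes had an unadjusted p under 0.05, and 0 passed adjustment. In each of the 9 the libraries of the groups overlapped over most of their range.

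Among the cerebellins, secreted C1q-family proteins of granule cells, Cbln3 had 6.31 CPM in the lowest, 85.4 in the median and 116.5 in the highest control library. In deltamethrin it had 11.3, 81.7 and 165.9 CPM. The medians were thus close, and the 5 highest libraries were all deltamethrin. Control libraries averaged 69.9 ± 38.5 CPM (SD, n = 13), and deltamethrin libraries 88.5 ± 45.97 CPM (SD, n = 18). By edgeR the log2 fold change of Cbln3 was 0.34 ± 0.32 (SE; adjusted p = 0.830). Cbln1, the family member whose loss disrupts parallel fibre synapses, ran from 11.8 through 61.5 to 76.6 CPM in control. In deltamethrin it ran from 17.96 through 63.7 to 100.8 CPM. Again 5 deltamethrin libraries lay above the highest control library, while 8 lay below the control median. The log2 fold change of Cbln1 was 0.26 ± 0.21 (edgeR adjusted p = 0.821), and 0.17 without control replicate 1.

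The Zic genes encode zinc finger transcription factors of granule cells and their precursors. Zic1 had 14.9, 72.5 and 91.2 CPM in the lowest, median and highest control libraries, and 32.99, 78.7 and 116.4 CPM in deltamethrin. Zic2 had 8.78, 32.2 and 39.3 CPM in control and 13.1, 32.998 and 50.999 CPM in deltamethrin. For both genes 10 of 18 deltamethrin libraries were above the control median and 5 above the highest control. Their log2 fold changes were 0.27 ± 0.19 and 0.23 ± 0.17 (edgeR adjusted p = 0.813 and 0.815), and that of Zic2 was 0.15 without control replicate 1. Zic4 was the least variable marker, with 2.24, 6.15 and 7.99 CPM in control and 4.35, 6.81 and 8.86 CPM in deltamethrin. In 13 of 18 deltamethrin libraries it was above the control median. Its mean was 5.79 ± 1.6 CPM in control and 6.84 ± 1.12 in deltamethrin, a log2 fold change of 0.24 ± 0.12. The unadjusted p was 0.0480 and the adjusted p 0.813 (edgeR), so the difference did not hold over all genes. Leaving out 1 library moved its log2 fold change from 0.17, without control replicate 1, to 0.30.

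En2 encodes the engrailed homeodomain factor that patterns midbrain and cerebellum. It had 2.39, 13.5 and 18.8 CPM in the lowest, median and highest control libraries and 4.16, 14.2 and 21.1 CPM in deltamethrin. The log2 fold change was 0.21 ± 0.20 (edgeR adjusted p = 0.826), and 3 deltamethrin libraries exceeded the highest control. Without control replicate 1 the log2 fold change of En2 was 0.12. Neurod1, a basic helix-loop-helix factor of differentiating granule cells, had 8.66, 22.98 and 29.3 CPM in control and 7.17, 24.97 and 39.3 CPM in deltamethrin. It was the only marker whose lowest value was in a deltamethrin library, replicate 14. Its log2 fold change was 0.30 ± 0.17, with an unadjusted p of 0.0965 and an adjusted p of 0.813 by edgeR.

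The 2 Purkinje cell genes differed in their values. Car8, a carbonic anhydrase-related protein that binds the inositol trisphosphate receptor, had 25.4, 115.6 and 152.6 CPM in the lowest, median and highest control libraries. In deltamethrin it had 28.9, 149.6 and 191.6 CPM, and 7 libraries lay above the highest control. Its means were 108.4 ± 35.99 CPM in control and 133.6 ± 42.8 in deltamethrin, a log2 fold change of 0.30 ± 0.20 (edgeR adjusted p = 0.813). Pcp2, a G protein regulator also called L7, had 4.55, 19.9 and 33.3 CPM in control and 6.26, 19.4 and 27.6 CPM in deltamethrin. The highest control library, replicate 2, lay above all deltamethrin libraries, though it ranked 4 of 31 in ascending order for Cbln3. It is the library with the lowest total count and the highest mitochondrial share, and its TMM factor was 0.613. Without it the log2 fold change of Pcp2 was 0.096 and the lowest r of any pair of markers was 0.736 in place of 0.669. The means of Pcp2 were 19.3 ± 7.19 and 19.4 ± 5.02 CPM. The log2 fold change of Pcp2 was 0.015 ± 0.17 (edgeR adjusted p = 0.986), with an approximate 95% interval from -0.34 to 0.37. For Cbln3 that interval was -0.32 to 0.99 and for Car8 -0.10 to 0.71. Over all libraries a difference of either sign was thus within the error of all 3. Without control replicate 1 the log2 fold change of Pcp2 was -0.074.

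**Figure D1:**
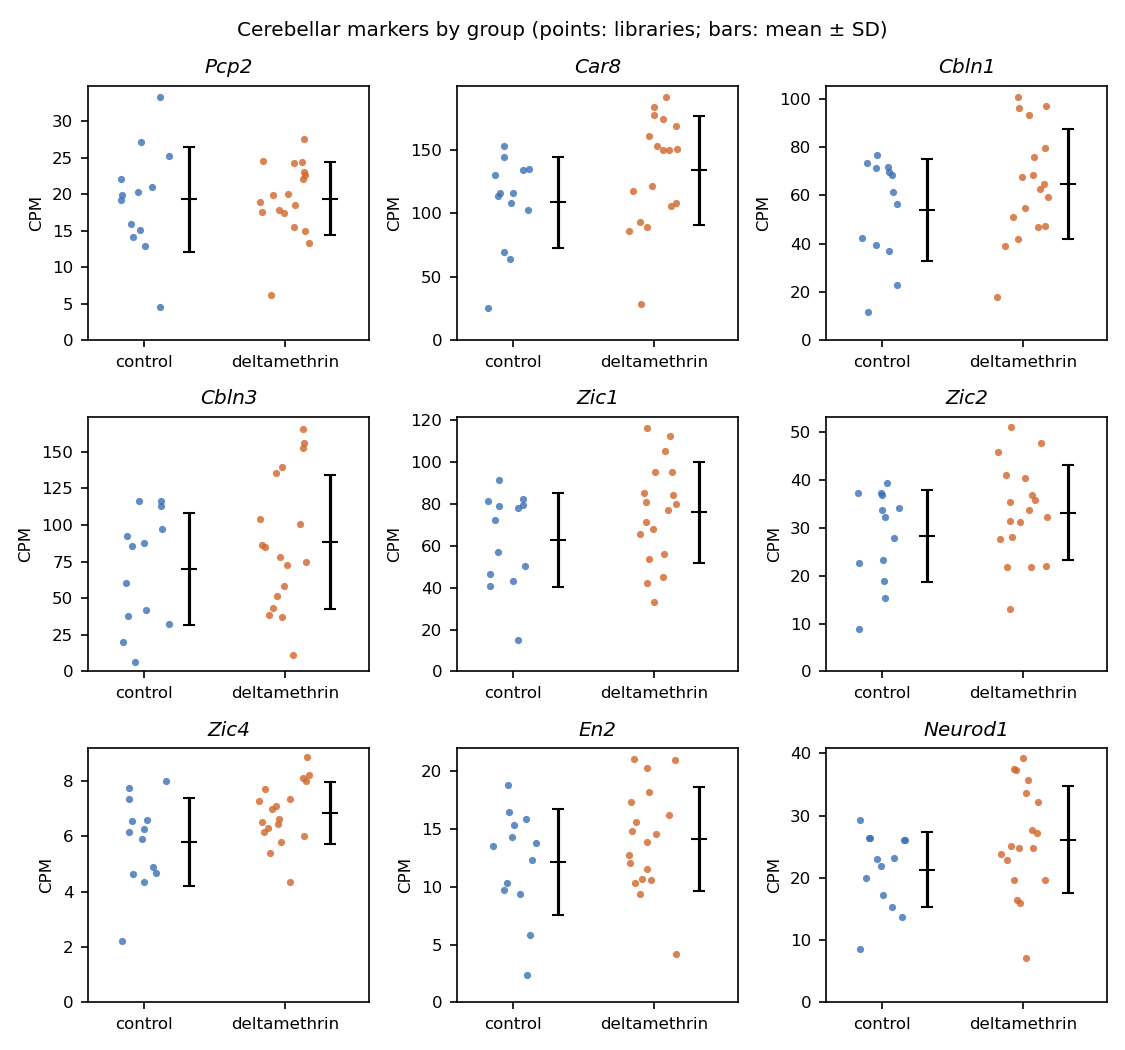
CPM of each of the 9 markers (y axis, from 0) in 13 control and 18 deltamethrin libraries. Points are libraries and bars are the mean ± 1 SD; the groups overlap for each gene, and 1 library of each group lies near the bottom of most panels.

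The second comparison was among libraries. The SD of log2 CPM over the 31 libraries was 1.09 for Cbln3, which placed it at the 99.8th percentile of all genes tested. For the other markers it was 0.70 for Cbln1, 0.67 for Car8, 0.66 for En2, 0.61 for Zic1, 0.57 for Pcp2, 0.56 for both Neurod1 and Zic2, and 0.38 for Zic4, where the median gene had 0.29. Zic4 was at the 68.4th percentile and the other 8 were at or above the 88.1th. The ratio of the highest to the lowest library was 8.81 for En2, 8.56 for Cbln1, 7.82 for Zic1, 7.55 for Car8, 7.33 for Pcp2, 5.81 for Zic2, 5.48 for Neurod1 and 3.96 for Zic4.

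The 2 libraries with the least Cbln3 had less of every marker, though not equally less. Control replicate 1 had 7.39% of the median Cbln3 of the other 29 libraries, and deltamethrin replicate 14 had 13.2%. En2 was at 17.3% and 30.02% in the same libraries, Cbln1 at 18.2% and 27.8%, Zic1 at 19.1% and 42.4%, and Car8 at 19.5% and 22.2%. Pcp2 was at 22.9% and 31.5%, Zic2 at 26.1% and 38.8%, Neurod1 at 34.8% and 28.8%, and Zic4 at 34.2% and 66.4%. Thus Zic4 kept the largest share of its usual level in deltamethrin replicate 14, and Cbln3 the smallest share in both. Neither library had the lowest depth, with 26233369 and 28304144 counts, or the highest mitochondrial share, with 18.2% and 17.5%. Control replicate 1 had 26358 genes detected, more than control replicate 2 alone, and deltamethrin replicate 14 had 27659, where the median library had 28335. Their mean log2 CPM over 9 striatal genes was 6.292 and 6.001, the 30th and 26th of 31 in ascending order. In other lists the 2 libraries were apart: control replicate 1 ranked 1 and deltamethrin replicate 14 ranked 23 for thalamic genes, 1 and 11 for hindbrain genes, 31 and 17 for cortical and hippocampal genes, and 31 and 12 for microglial genes. At the other end, deltamethrin replicates 11, 15 and 3 had the highest mean rank over the 9 markers, and the rank of each marker in them was 23 or higher.

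**Figure D2:**
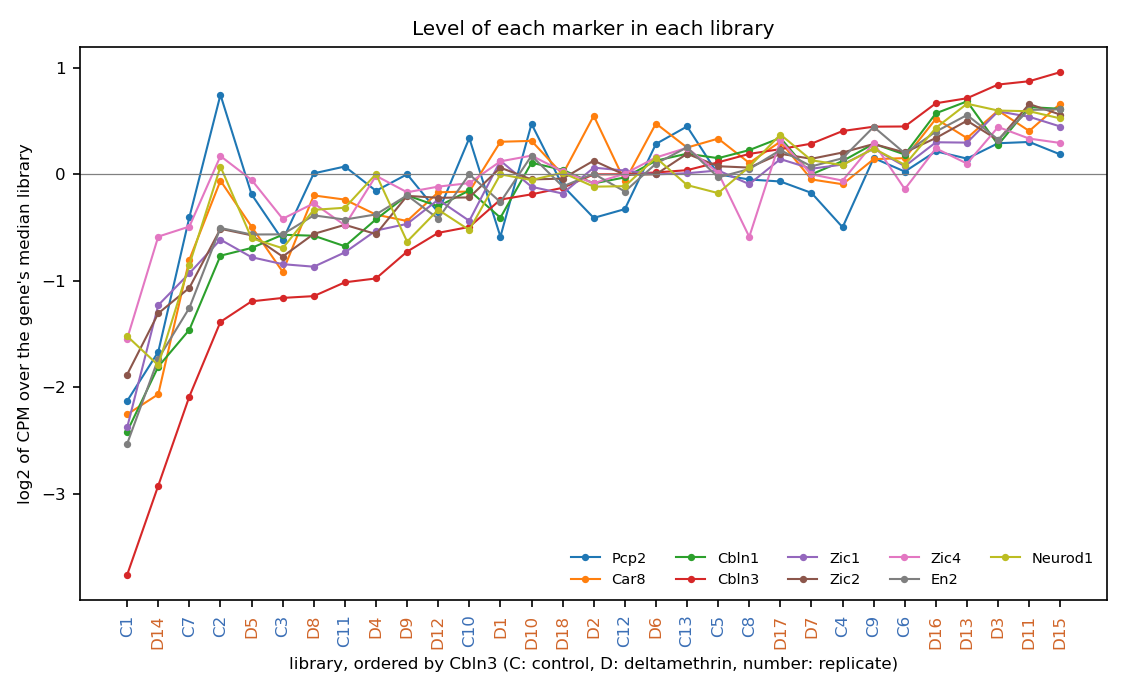
Level of each marker in each library, as log2 of its CPM over that gene's median library (y axis), with libraries ordered by Cbln3 (x axis; C is control, D is deltamethrin, the number is the replicate). The lines other than that of Pcp2 rise together from left to right, Cbln3 over the widest range and Zic4 over the narrowest. Pcp2 departs most from the others: it is lowest in C1 and D14 and highest in C2, near the left.

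All 36 pairs of markers were positively correlated over the 31 libraries, with a median Pearson r of 0.901 and a range from 0.669 to 0.987. Spearman rho ran from 0.363 to 0.976, with a median of 0.827. After adjustment over the 36 pairs every permutation p was under 0.05, the largest being 0.00038 for r and 0.0452 for rho. As background, the median r of a marker with all other genes tested lay between 0.0016 and 0.017. Within control the median r of the pairs was 0.907 (n = 13) and within deltamethrin 0.894 (n = 18), values close to that over all libraries. Of the 19520 genes outside the list, 0.487% had an r of at least 0.8 with the mean standardised level of the 9 markers, and the median gene had 0.0048.

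The tightest pairs joined genes of the granule cell. Cbln3 with Zic2 had the highest r, 0.987 (rho = 0.976, adjusted permutation p = 1.29e-05 for r and 1.38e-05 for rho, resting on 1e-05, the smallest p the permutations can give). Their r was 0.976 without the 2 libraries farthest from the median, 0.989 within control and 0.984 within deltamethrin. Cbln1 with En2 followed at 0.983, Cbln1 with Cbln3 at 0.979 and Zic1 with Zic2 at 0.973. On the log2 scale, Cbln3 accounted for 97.3% of the variance of Zic2, 95.9% of Cbln1, 94.3% of En2 and 93.9% of Zic1, as a description over the 31 libraries. It accounted for 84.1% of Car8, 82.9% of Neurod1, 64.1% of Zic4 and 47.5% of Pcp2. Without control replicate 1 and deltamethrin replicate 14 these shares were 67.2% for Car8, 70.1% for Neurod1, 37.5% for Zic4 and 5.07% for Pcp2.

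The slopes on Cbln3 were all below 1. A doubling of Cbln3 went with a change of 0.63 ± 0.024 log2 units (SE) in Cbln1, 0.59 ± 0.027 in En2, 0.57 ± 0.046 in Car8 and 0.54 ± 0.026 in Zic1. The change was 0.51 ± 0.016 in Zic2, 0.47 ± 0.039 in Neurod1, 0.36 ± 0.070 in Pcp2 and 0.28 ± 0.039 in Zic4. A slope depends on the correlation as well as on the spread of the 2 genes. The wider spread of Cbln3 is given by its SD of log2 CPM, 1.09 against 0.38 to 0.70 in the other 8. Without control replicate 1 and deltamethrin replicate 14 the slope of Zic2 was 0.52 ± 0.023 and that of Pcp2 0.097 ± 0.081.

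**Figure D3:**
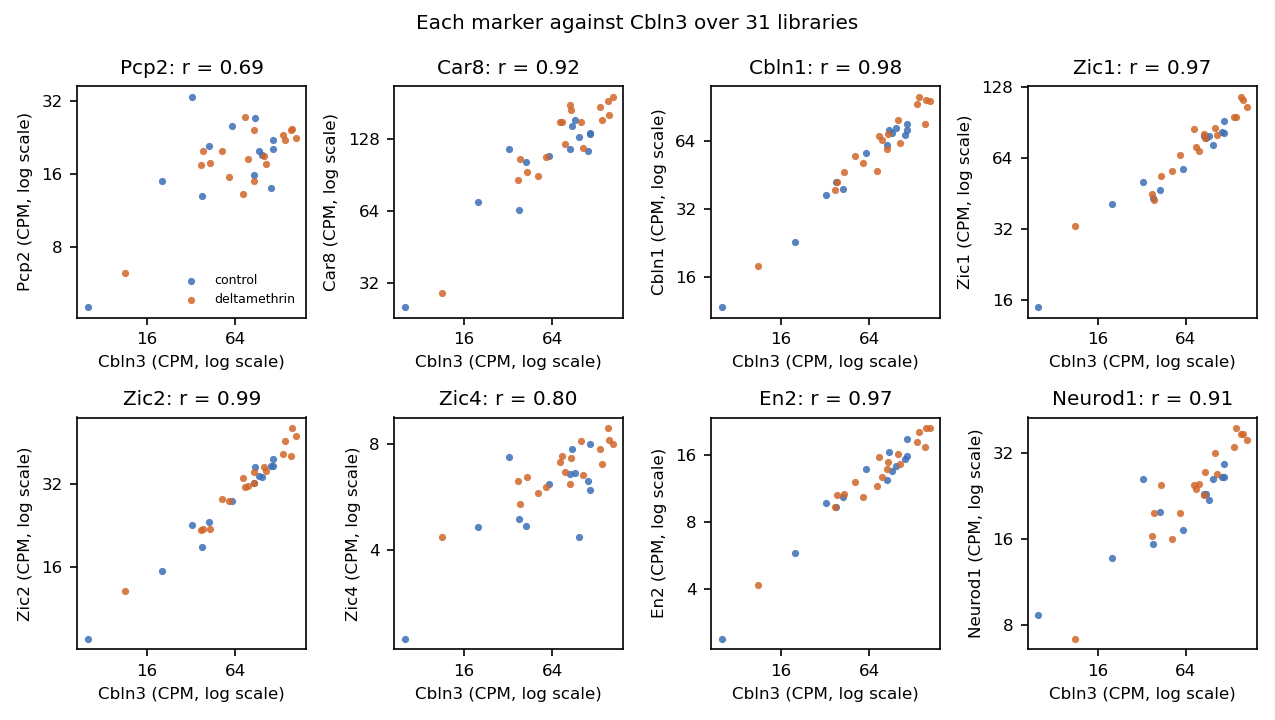
CPM of each of 8 markers (y axis, log scale) against CPM of Cbln3 (x axis, log scale), with 1 point a library, coloured by group. Zic2, Cbln1, En2 and Zic1 follow Cbln3 closely, with r from 0.97 to 0.99, and control and deltamethrin points lie along the same line; the Pcp2 panel (r = 0.69) is spread widely apart from the 2 lowest libraries.

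Pcp2, whose count is uncertain where it overlaps Pet100, was the marker whose correlations with the other 8 fell most without the 2 low libraries. Its r with the other 8 ran from 0.669 to 0.814 over 31 libraries and from 0.215 to 0.485 over the remaining 29. Without them 4 of its 8 relations kept an adjusted permutation p under 0.05 for r and 5 for rho. With Cbln3 its r was 0.225 over 29 libraries (rho = 0.301, adjusted permutation p = 0.248 and 0.118). That with Zic1 was 0.215 (rho = 0.221, adjusted permutation p = 0.262 and 0.247), and that with Zic2 was 0.287 (rho = 0.331, adjusted permutation p = 0.142 and 0.0860). These 3 relations thus did not hold without the 2 libraries. The relation with Cbln1 did not hold by r (0.341, adjusted permutation p = 0.0767) but did by rho (0.404, adjusted permutation p = 0.0338). The 29 libraries include control replicate 2, where Pcp2 ranked 31 and Cbln3 ranked 4 of 31 in ascending order. Values without all 3 libraries were not computed, so the part of control replicate 2 in the lower values was not tested. With Car8, the other Purkinje cell gene, its r was 0.814 over 31 and 0.436 over 29 libraries. The remaining 28 pairs kept an adjusted permutation p under 0.05 without the 2 libraries. Their r was 0.612 to 0.714 for pairs with Zic4 and 0.782 to 0.976 for the 21 pairs with neither Zic4 nor Pcp2. Car8 kept an r of 0.820 with Cbln3 and 0.861 with Zic1 over 29 libraries.

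**Figure D4:**
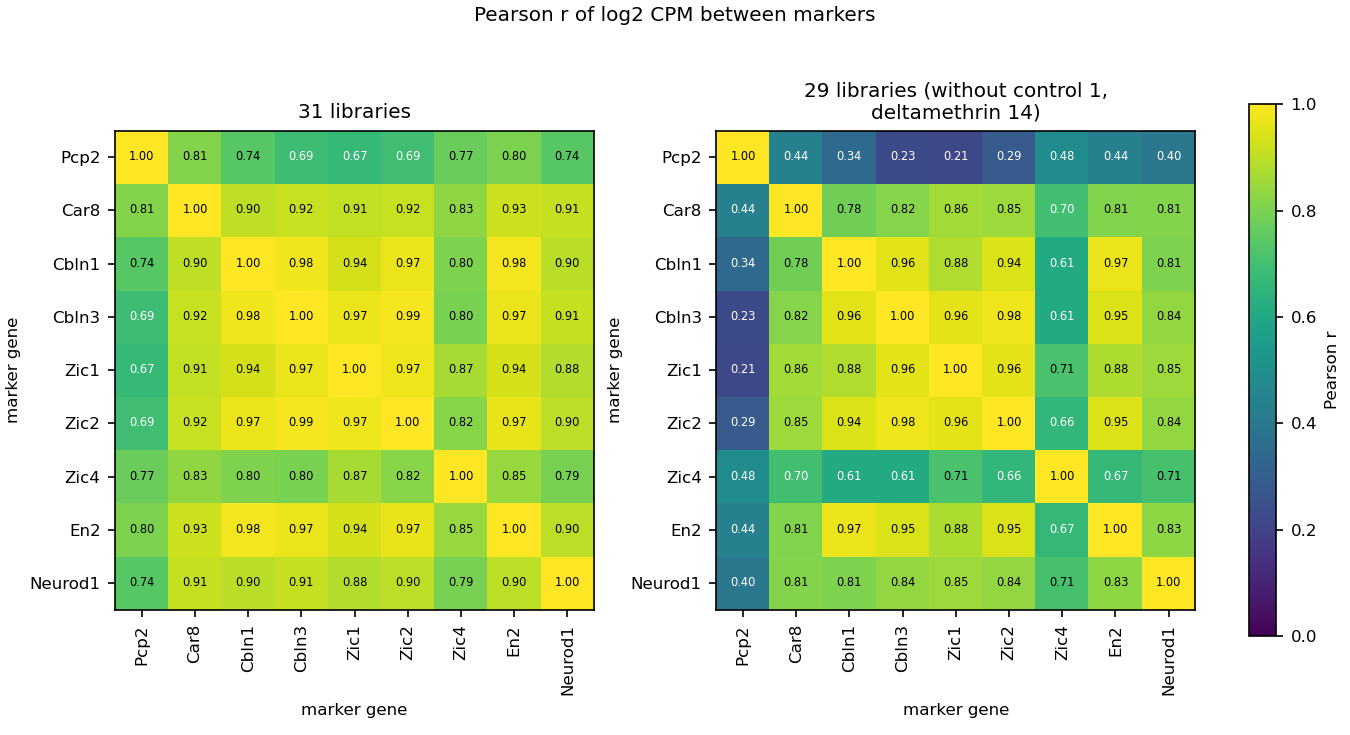
Pearson r of log2 CPM for each pair of the 9 markers (both axes; colour and printed value are r), over 31 libraries at left and over 29 at right. At right the row of Pcp2 falls to between 0.215 and 0.485 and that of Zic4 to between 0.485 and 0.714, and the block of the other 7 genes stays at or above 0.78.

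The composition of the libraries moved with most of the markers. The r of a marker with the log2 mitochondrial rRNA share ran from -0.592 for Cbln3 to 0.049 for Pcp2, with a median of -0.464. The adjusted permutation p over the 27 relations was 0.0024 for Cbln3 (rho = -0.696, adjusted permutation p = 0.000405) and 0.789 for Pcp2 (rho = 0.056, adjusted permutation p = 0.764). With the 2 most extreme mitochondrial shares left out the r of Cbln3 was -0.541, with -0.652 in the 13 control and -0.518 in the 18 deltamethrin libraries. Total count had a median r of 0.4996 with the 9 markers, and the number of genes detected 0.567. With the mitochondrial share regressed out of each gene the median r of the 36 pairs was 0.899, and the lowest was 0.774. The part of depth in the correlations was not tested.

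Other genes known from cerebellar cells were taken from lists of known cell type markers. Of 14 other granule cell genes, 13 passed the filter and 0 had an adjusted p-value under 0.05 between the groups. The list's median log2 fold change was 0.093. Of 17 other Purkinje cell genes, 17 were tested and 0 passed adjustment, with 1 higher and 0 lower unadjusted, where 2% and 2.37% of all genes were, and a median of 0.18. A count of 1 is near that background. Calb1, which encodes the calcium buffer calbindin, stood at 111.5 ± 10.4 CPM in control and 128.9 ± 18.04 in deltamethrin, a difference of 0.21 ± 0.069 on the log2 scale (edgeR, p = 0.00467 unadjusted and 0.813 adjusted).

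The other cerebellar lists gave no call after adjustment. Of 9 genes of cerebellar interneurons, 8 were tested and 1 was higher unadjusted: Tfap2b, an AP-2 transcription factor of GABAergic precursors, with 2.29 ± 1.18 and 3.35 ± 1.48 CPM (log2 fold change 0.52 ± 0.26, edgeR adjusted p = 0.813). Of 5 genes of Bergmann glia, the astrocytes of the Purkinje layer, and of 11 genes of the cerebellin pathway, 0 had an unadjusted p-value under 0.05. Slc1a3, the glutamate transporter of Bergmann glia and other astrocytes, had a log2 fold change of 0.21 ± 0.11. Nrxn2, a presynaptic partner of cerebellin, had 0.067 ± 0.12. Of 10 genes of midbrain and hindbrain patterning, 8 were tested, with 0 higher and 1 lower unadjusted. The latter was Fgf17, a growth factor of the mid-hindbrain boundary, at 0.466 ± 0.159 and 0.323 ± 0.130 CPM (edgeR adjusted p = 0.813).

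Across libraries the other granule and Purkinje cell genes followed Cbln3. Their mean log2 CPM had an r with Cbln3 of 0.955 for the 13 granule cell genes (rho = 0.940) and 0.937 for the 17 Purkinje cell genes (rho = 0.835). The adjusted permutation p over 21 lists was 5.25e-05 for each r and 7e-05 for each rho. Without the 2 libraries farthest from the median of Cbln3, r was 0.903 and 0.867. It was 0.926 and 0.956 within control and 0.985 and 0.926 within deltamethrin. Single genes of a list were unequal. Of the most abundant per length, Grm4, a metabotropic glutamate receptor, had an r of 0.780 with Cbln3, and Gabrd, the delta subunit of the GABA-A receptor, had 0.373. Itpr1, the inositol trisphosphate receptor of Purkinje cells, had 0.549, while Pcp4, a calmodulin regulator that forebrain neurons also make, had -0.592.

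Interneuron genes followed Cbln3 with an r of 0.853 for their mean (rho = 0.794, adjusted permutation p = 5.25e-05 and 7e-05). Bergmann glia genes had 0.766 (rho = 0.671, adjusted permutation p = 5.25e-05 and 0.00035). These were 0.779 and 0.669 without the 2 farthest libraries. The most abundant interneuron genes, Sorcs3 and Lypd6, had single values of -0.111 and 0.187. Slc1a3 had 0.574 and Sept4, a septin of glia, 0.396. The cerebellin pathway list had an r of 0.497 (rho = 0.673, adjusted permutation p = 0.0106 and 0.000262), with 0.663 for Nrxn2.

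Markers of other regions and cell types moved with Cbln3 to different degrees. The mean of 9 striatal genes fell as Cbln3 rose (r = -0.530, rho = -0.493, adjusted permutation p = 0.00448 and 0.00952; -0.408 without the 2 farthest libraries). That of 4 astrocyte genes rose (r = 0.616, rho = 0.662, adjusted permutation p = 0.00118 and 0.000294; 0.595 without them). The r of 8 cortical and hippocampal genes was 0.159 (rho = 0.335, adjusted permutation p = 0.459 and 0.0909), and 0.494 without the 2 farthest libraries. That of 11 meningeal genes was 0.161 (rho = 0.013, adjusted permutation p = 0.459 and 0.957), and -0.111 without them. Lists of posterior and neighbouring regions rose with Cbln3. The r was 0.602 for midbrain and hindbrain patterning genes (rho = 0.509, adjusted permutation p = 0.00129 and 0.00685) and 0.552 for midbrain dopamine genes (rho = 0.447, adjusted permutation p = 0.00357 and 0.019). It was 0.549 for hindbrain genes (rho = 0.400, adjusted permutation p = 0.00357 and 0.0399) and 0.519 for thalamic genes, which did not pass by rho (rho = 0.305, adjusted permutation p = 0.00792 and 0.117). Without the 2 farthest libraries these 4 were 0.433, 0.463, 0.484 and 0.383. They were 0.858, 0.762, 0.774 and 0.750 within control, against 0.285, 0.305, 0.277 and 0.163 within deltamethrin, a difference that was not tested. Control replicate 1, the library with the least Cbln3, ranked 1, 2, 1 and 1 of 31 in ascending order for these lists. Deltamethrin replicate 14 ranked 7, 9, 11 and 23. Values within a group without these 2 libraries were not computed, so the contrast may rest on 1 library. Between the groups, 9 of 9 striatal genes and 9 of 9 choroid plexus genes had a negative log2 fold change, with medians of -0.16 and -0.12, and 0 of them passed adjustment. Over all genes tested 50.5% were positive and the rest were not. How far the genes of each list moved together was not tested, so these counts need not stand for separate observations. The summed level of the striatal genes ran from 553.8 to 1071 CPM in control and from 450.4 to 1163 CPM in deltamethrin. Their part in the values of the cerebellar markers was not tested.

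Genes of the other lists at an unadjusted p under 0.05 were few, and none passed adjustment (adjusted p = 0.813 for each by edgeR). Those with the higher mean in deltamethrin were Lhx9, a thalamic homeodomain factor (log2 fold change 0.44 ± 0.14), Cldn5, the tight junction protein of endothelium (0.21 ± 0.067), and the meningeal matrix genes Dcn (0.29 ± 0.094) and Col3a1 (0.38 ± 0.18). Those with the lower mean were the striatal receptor Gpr6 (-0.30 ± 0.13), the choroid plexus genes Ttr (-0.46 ± 0.21) and Folr1 (-0.49 ± 0.20), and Tmem119 of microglia (-0.15 ± 0.058). With Cbln3 across libraries, Gpr6 had an r of -0.598, Ttr -0.450, Folr1 -0.369, Lhx9 0.303 and Dcn -0.098.

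**Figure D5:**
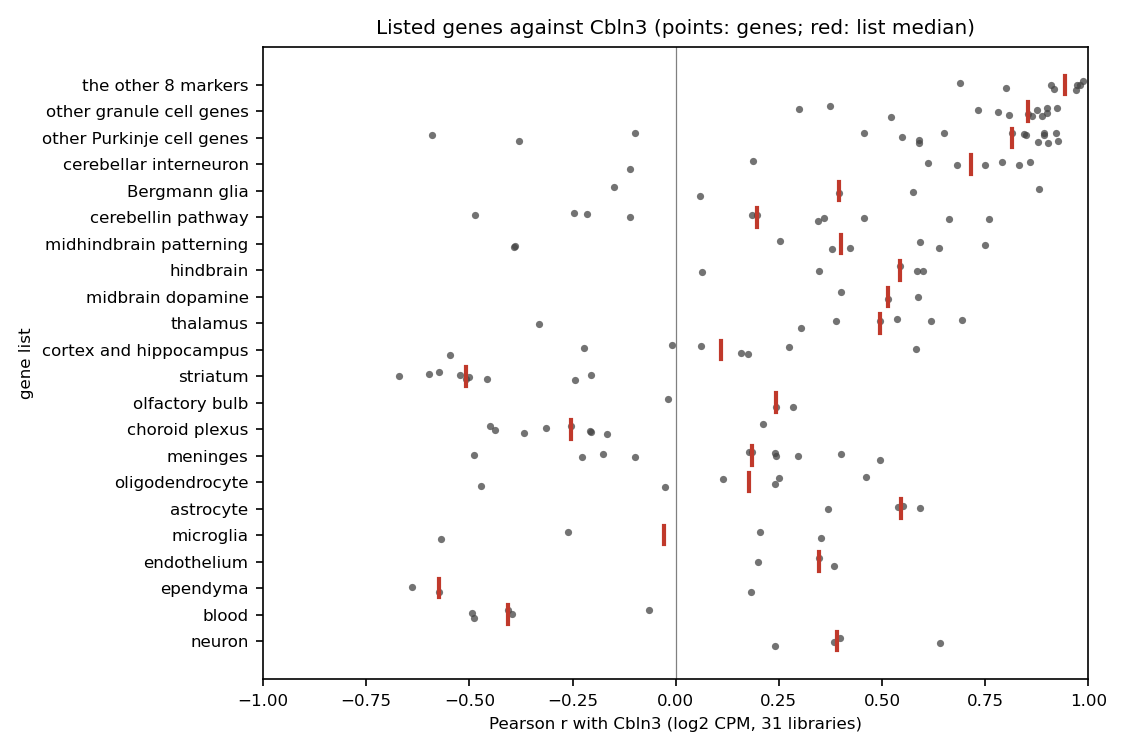
Pearson r with Cbln3 over 31 libraries (x axis) for each gene of the marker lists (points, 1 row a list); red bars are list medians. The other 8 markers and the granule and Purkinje cell genes have medians of 0.943, 0.855 and 0.814, and the 9 striatal genes all lie below 0.

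Over all protein-coding genes outside the list, those most like the 9 markers were ranked by r with the mean standardised log2 CPM of the markers over 31 libraries. The 10 highest were Chd7 (0.960), Lhx1 (0.960), Il16 (0.958), Mybpc3 (0.951), Barhl2 (0.951), Dao (0.948), Gabra6 (0.943), Chn2 (0.941), Fam107b (0.936) and Fat2 (0.933). Chd7 is a chromatin remodeller, Lhx1 a LIM homeodomain factor of Purkinje cells, and Gabra6 the GABA-A receptor subunit typical of granule cells. Fat2 is a protocadherin of granule cells, and Dao the D-amino acid oxidase of cerebellar glia. Without control replicate 1 and deltamethrin replicate 14 the r of these 10 genes lay between 0.818 for Fat2 and 0.938 for Chd7. The 5 lowest were Gabra5 (-0.773), Coch (-0.746), Mal2 (-0.726), Hs3st4 (-0.703) and Gabra4 (-0.700). Gabra5 and Gabra4 encode GABA-A receptor subunits that are mainly expressed in forebrain. None of the 15 passed adjustment between the groups. Fam107b was higher by 0.31 ± 0.13 on the log2 scale (unadjusted p = 0.0189) and Gabra5 lower, with a log2 fold change of -0.13 ± 0.051 (unadjusted p = 0.0137), both with an adjusted p of 0.813 (edgeR).

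With Cbln3 as a covariate, an alternative chosen after seeing the data, the log2 fold changes of the other 8 markers were closer to 0 for 7 of them. They were 0.069 ± 0.100 for Car8, 0.043 ± 0.057 for Cbln1, 0.089 ± 0.058 for Zic1, 0.046 ± 0.042 for Zic2, 0.15 ± 0.081 for Zic4, 0.017 ± 0.062 for En2 and 0.075 ± 0.086 for Neurod1. For Pcp2 the value was -0.12 ± 0.15. The adjusted p-values of these 8 were 0.926 to 0.976 (edgeR). The standard error of Zic2 fell from 0.17 to 0.042 in that fit, and that of Pcp2 from 0.17 to 0.15. Cbln3 is itself a marker that correlated with the other 8 and had a positive log2 fold change (0.34). Values closer to 0 and smaller standard errors were therefore built into this choice of covariate and are no separate result.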

How the data were processed

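Total RNA of 31 mouse brain libraries was sequenced on an Illumina NovaSeq, per the labels' protocols. The deposited values are raw counts per gene and library. The submitters' processing notes name MultiQC, Trimmomatic, HISAT2, SAMtools and GRCm38, with no versions; the counting tool, its annotation and its use of strand are not given in the sources used here. Groups came from the agent in the labels. Gene positions were matched by identifier to GENCODE M21 (99.3% of identifiers). The 9 genes, the other lists and the tests were chosen with earlier results of these data known.

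Genes were kept by edgeR 4.0.16 filterByExpr (count 10, total 15), scaled by TMM and tested with glmQLFit and glmQLFTest (robust) in R 4.3.3, with Benjamini-Hochberg adjustment over 19529 genes. The SE is the log2 fold change over the root of F. Correlations used log2 CPM with a prior count of 2 and two-sided tests of 100000 permutations, whose smallest p is 1e-05, adjusted within 36 pairs, 27 composition relations or 21 lists. Named beyond the 9 were list genes at an unadjusted p under 0.05 (at most 5 a list), the 2 most abundant per length of each cerebellar list, and the 10 most and 5 least alike coding genes. Some genes that this rule names are not reported here. On simulated counts for this comparison with 19351 genes tested, 98% of 50 genes changed 2-fold and 42% of 50 changed 1.25-fold were called. Those genes were drawn at random from genes with a mean count over 50 and simulated without the shared variation of the markers. Apart from Zic4, each marker had an edgeR dispersion at or above the 87.9th percentile of all genes tested. The shares called therefore do not say how often a change in these markers would be called. Alternatives were other scalings, filters, DESeq2 1.42.0, limma 3.58.1 voom, covariates, and leaving out libraries.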

Additional observations from a re-analysis of the deposited data

How the results depend on the processing

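The count of genes called was 0 in all 13 alternatives and in all 31 fits that left out 1 library; unadjusted p-values under 0.05 numbered 614 to 1948 and 526 to 1389. Pcp2 changed sign. Its log2 fold change was -0.018 without control replicate 1 and deltamethrin replicate 14 and -0.12 with Cbln3 as a covariate, 2 alternatives chosen after seeing the data. Leaving out 1 library gave -0.074 (without control replicate 1) to 0.096 (without control replicate 2), below 0 in 9 of 31 fits. The cause was not tested. The other 8 markers stayed above 0 in every setting run, with no adjusted p under 0.533. Among the fits without 1 library, that without control replicate 1 gave the lowest value of all 9 markers, and it lowered Cbln1 (0.17), Zic2 (0.15) and En2 (0.12) by more than 1.5 times. The median r of the 36 pairs was 0.811 without the 2 low libraries and 0.922 without scaling factors, and 0.869 to 0.914 with 1 library left out. No paired analysis was possible because numbers given in accession order tie no control to a deltamethrin library.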
